A study of Mus musculus with 74 samples.

Results

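Type IV collagen is encoded by 6 genes, Col4a1 to Col4a6, and these 6 genes are described here across metastatic mouse mammary tumors. They were found by gene symbol, out of 22066 gene symbols with values in at least 1 of the 5 tables used, and were chosen on the measured ratios of Lung metastasis (Lung met) over primary tumor (PT) in these same tables. Every ratio below is therefore a description and was not tested. Bulk RNA-seq had been performed on 74 samples of PT and Lung met tissue, 6 of each tissue per model and 7 of each in C3Tag, and each model was compared within itself.

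All animals were female and carried 1 transgene. In the FVB driver cohort this was Her2 (the neu gene) or Myc under the MMTV promoter, which is active in mammary epithelium, or TAg under the C3(1) promoter (C3Tag), all on the FVB inbred background. In the PyMT-F1 cohort, FVB males with PyMT under the MMTV promoter had been bred to BALB (BALB/cJ), SEAGN (SEA/GnJ) or AKR (AKR/J) females. All PTs of an animal had been sampled and combined in 1 vial. In the Her2, Myc and C3Tag models, tumors of animals with a single lesion had been removed by surgery at or before they reached 1 cm and the animals aged further, by up to 60 days, so PT and Lung met of such animals were taken at different times. Metastatic nodules had been taken from the lung, and in such bulk tissue fewer cells of a type and less RNA per cell cannot be told apart. The numerical age of each group was not used here.

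Values were available as 1 normalized mean of PT and 1 of Lung met per gene and model, with no value of a single sample. No spread between animals can be given, and no difference below is shown to exceed it. The tables of Her2, C3Tag, BALB and SEAGN are called by these names. A table deposited under the strain AKR is called the AKR-named table, because its strain was not settled. Nearly all of the ratios compared equal those that the study lists for BL6, another PyMT-F1 strain. The sample numbers and the AKR/J cross given above may therefore not describe this table. For Myc no means were analysed, and the Myc table names each chain apart from Col4a3. The sample name and the genotype label gave different strains in 23 of the 36 PyMT-F1 samples, and the sample names were followed in counting samples. The means came already pooled, so which animals entered those of BALB and SEAGN could not be checked. The tables held means of 17270 to 19320 genes, and the median log2 ratio of all genes lay between -0.001 and 0.030, so the centre of each table was close to 0.

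Type IV collagen is the network-forming collagen of basement membranes, the thin sheets on which epithelium and endothelium rest. Its chains wind into triple helices of 3 kinds. The chains of Col4a1 and Col4a2 form the helix found under nearly all epithelia and vessels. The chains of Col4a3, Col4a4 and Col4a5 form a helix that is best known from the kidney glomerulus and is also found in the alveolar basement membrane of the lung. The chains of Col4a5 and Col4a6 form a helix of smooth muscle and of some epithelia, including the myoepithelial side of the mammary gland.

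The genes lie in head-to-head pairs, each pair sharing the stretch from which both are transcribed outward. Positions are those of GENCODE M21 on GRCm38. Col4a1 (chr8:11198423-11312826, minus strand) and Col4a2 (chr8:11312805-11449287, plus strand) overlap by 22 bases at their first exons. Col4a4 (chr1:82448423-82586849, minus strand) and Col4a3 (chr1:82586921-82722059, plus strand) start 71 bases apart. Col4a6 (chrX:141165403-141474076, minus strand) and Col4a5 (chrX:141475385-141689234, plus strand) start 1308 bases apart. The stretches at the first 2 pairs are shown because partners sharing a start differed in how alike their ratios were. Both are from the RefSeq start windows on GRCm38.p6, read 5′ to 3′ on the minus strand, and capitals mark the motif GGGCGG read on the other strand. The first lies at chr8:11312805-11312826, in the first exons of both genes, and the second at chr1:82586850-82586920, between the starts of Col4a4 and Col4a3.
Col4a1 and Col4a2: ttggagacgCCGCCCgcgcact
Col4a4 and Col4a3: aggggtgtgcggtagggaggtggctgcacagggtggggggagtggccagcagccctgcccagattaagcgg

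GC bases made up 72.7% of the first stretch and 69.0% of the second. Windows of 300 bases, from 250 before to 50 after the start, were given for 5 of the 6 chains (not for Col4a3). GGGCGG, searched on both strands, occurred 1 time in the window of Col4a1, 3 times in that of Col4a2, 1 time each in those of Col4a5 and Col4a6 and not in that of Col4a4, against a share of 35.7% of all 32851 windows that hold it. CCAAT occurred once in the windows of Col4a1, Col4a2 and Col4a5 and is held by 37.4% of all windows. TATAAA, held by 13.6% of all windows, occurred in none of the 5. The windows of Col4a1 and Col4a2 overlap, so their matches are not separate counts. No match of these 3 motifs fell in the stretch between Col4a4 and Col4a3, which is read as a description of these letters only. In the same number of bases before the start, 20.7% of all windows hold GGGCGG. For CCAAT this share is 13.3%, and for TATAAA it is 4.41%.

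Col4a3 had the highest ratio of the 6 chains wherever it had a value. In Her2 its normalized mean was 7.96 in PT and 386 in Lung met, 48.5-fold higher (log2 ratio 5.60). In C3Tag the means were 18.1 and 517, a 28.5-fold difference (log2 ratio 4.83). The AKR-named table gave 26.9 and 665, 24.7-fold higher (log2 ratio 4.63). The gene thus moved from among the lower-ranked genes of the PT to the middle of the Lung met, since between 4.83% and 16.6% of genes had a lower PT mean and between 47.7% and 56.3% a lower Lung met mean. At least 99.87% of genes had a lower ratio in each of these 3 tables. BALB and SEAGN have no row named Col4a3, and it was not analysed there. On the opposite strand, C430014B12Rik overlaps Col4a3 by 30132 bases, and whether the counting used strand is not given in the sources used here. Its log2 ratio was 0.08 in Her2, 0.15 in C3Tag and -0.03 in the AKR-named table, so the overlapping gene did not show the ratio of Col4a3.

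Col4a4, the partner across the shared start, was higher in Lung met in all 5 tables, at lower ratios. Its means were 299 in PT and 555 in Lung met of Her2 (1.85-fold, log2 ratio 0.89). C3Tag gave 113 and 645 (5.73-fold, log2 ratio 2.52), and the AKR-named table had means of 100.3 and 592 (5.90-fold, log2 ratio 2.56). Among the PyMT-F1 crosses, the means were 59.0 and 98.3 in BALB (1.67-fold, log2 ratio 0.74) and 38.9 and 135 in SEAGN (3.47-fold, log2 ratio 1.79). In each table between 95.7% and 99.1% of genes had a lower ratio than Col4a4.

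Col4a5, whose product joins both of these in the alveolar helix, had nearly equal means in both tissues. They were 4398 in PT and 4556 in Lung met of Her2, 2731 and 2224 in C3Tag, and 3393 and 3417 in the AKR-named table. BALB gave 913 and 1016, and SEAGN 1063 and 946. The log2 ratios spanned -0.30 in C3Tag to 0.15 in BALB. Col4a5 was among the more abundant genes of both tissues, with 89.8% to 93.8% of genes below it in PT and 86.2% to 94.1% in Lung met.

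Col4a6, its partner on the X chromosome, had means of 3099 in PT and 3580 in Lung met of Her2, and 3492 and 3069 in C3Tag. In SEAGN the means were 887 and 747, and those in the AKR-named table were 2851 and 1917. Its log2 ratios were 0.21, -0.19, -0.25 and -0.57 in the same order, the last of them the lowest of all chain ratios. BALB names Col4a6 without a mean.

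Col4a1 and Col4a2, the chains of the common helix, had like ratios within each table, and these differed between tables. C3Tag had Col4a1 means of 5346 in PT and 15657 in Lung met (2.93-fold, log2 ratio 1.55) and Col4a2 means of 3925 and 10692 (2.72-fold, log2 ratio 1.45). In the AKR-named table Col4a1 had 3319 and 9157 (2.76-fold, log2 ratio 1.46) and Col4a2 2008 and 5184 (2.58-fold, log2 ratio 1.37). Both chains were thus more than 2-fold higher in Lung met there.

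The other 3 tables had ratios close to 1. For Her2, Col4a1 had 6431 in PT and 7732 in Lung met (log2 ratio 0.27) and Col4a2 had 3830 and 4450 (0.22). In BALB the log2 ratio was 0.32 for Col4a1, from 2397 and 2999, and 0.26 for Col4a2, from 1524 and 1829. In SEAGN it was -0.07 for Col4a1, from 3106 and 2956, and -0.10 for Col4a2, from 1912 and 1780. Col4a1 was a highly ranked gene throughout, with 97.2% to 99.5% of genes below it in Lung met.

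**Figure D1:**
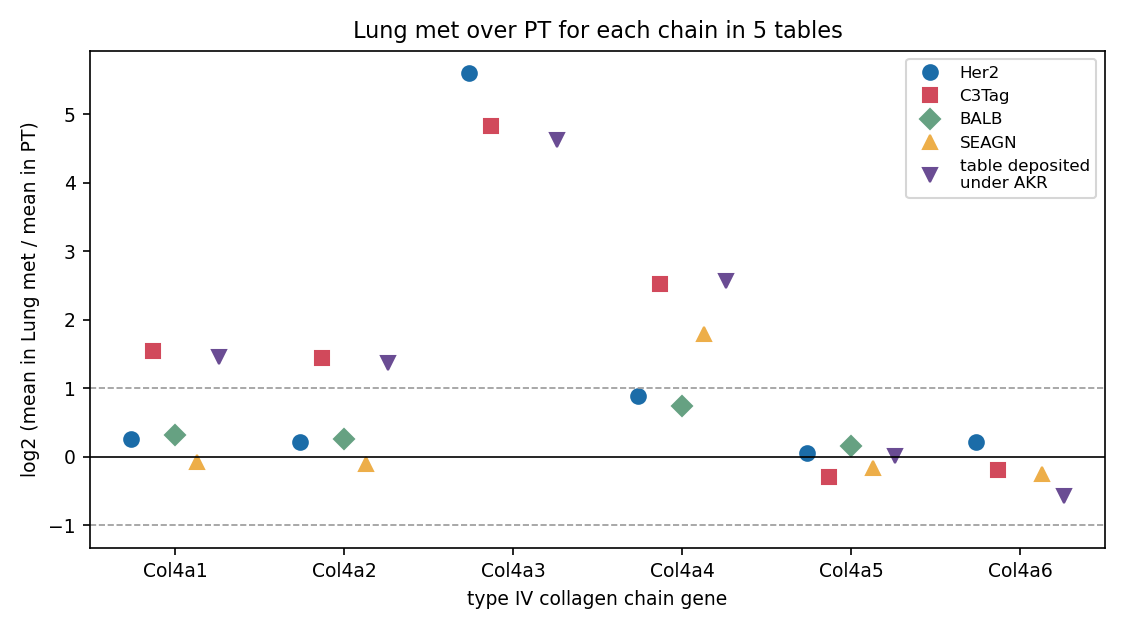
Log2 of the Lung met mean divided by the PT mean (vertical axis) for each chain (horizontal axis) in 5 tables, each point being 1 table and the dashed lines a 2-fold difference. Col4a3 lies between 4.63 and 5.60, Col4a1 and Col4a2 are above 1 only in C3Tag and the AKR-named table, and Col4a5 and Col4a6 stay within the dashed lines.

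Of the 27 ratios, 10 were at least 2-fold higher in Lung met and 0 were at least 2-fold lower. These counts describe the ratios on which the chains were chosen, and nothing is read from them beyond that. In Her2 1 of 6 chains was at least 2-fold higher, where 2.38% of all genes were that much higher and 1.43% that much lower. In C3Tag it was 4 of 6, with 7.42% of all genes higher and 1.7% lower. In BALB it was 0 of 4, against 2.26% and 2.4% of all genes, and Col4a4 at 1.67-fold was the nearest. In SEAGN 1 of 5 was, against 2.86% and 3.22%. In the AKR-named table it was 4 of 6, with 7.31% and 1.73% of all genes. The lowest ratios past 2-fold were Col4a2 in the AKR-named table (2.58-fold) and in C3Tag (2.72-fold). The highest below it were Col4a4 in Her2 (1.85-fold) and in BALB (1.67-fold).

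The chains of the alveolar helix were set against the common pair by the difference of their mean log2 ratios. With Col4a3, Col4a4 and Col4a5 the difference was 1.94 in Her2, 0.85 in C3Tag and 0.98 in the AKR-named table. With Col4a4 and Col4a5 alone it was 0.15 in BALB and 0.90 in SEAGN. The 3 chains of the alveolar helix did not move as a block. Col4a5 had log2 ratios of -0.30 to 0.15, and Col4a4 had 0.74 to 2.56. Without Col4a5, the difference was 3.00 in Her2, 2.18 in C3Tag and 2.18 in the AKR-named table. Without Col4a3 it was 0.23, -0.39 and -0.13 in the same order, so its sign in C3Tag and the AKR-named table rested on Col4a3. Without Col4a4 it was -0.14 in BALB and -0.081 in SEAGN, so its sign there rested on Col4a4. Summed means gave -0.02 in Her2, -1.26 in C3Tag and -1.02 in the AKR-named table, because the abundant Col4a5 then outweighs the other chains.

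Partners across a shared start were compared next. The log2 ratios of Col4a1 and Col4a2 differed by 0.03 to 0.10 in the 5 tables. Those of Col4a5 and Col4a6 differed by 0.08 to 0.58 in 4 tables. Col4a3 and Col4a4 were the pair with unlike ratios, with differences of 4.71 in Her2, 2.32 in C3Tag and 2.06 in the AKR-named table.

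**Figure D2:**
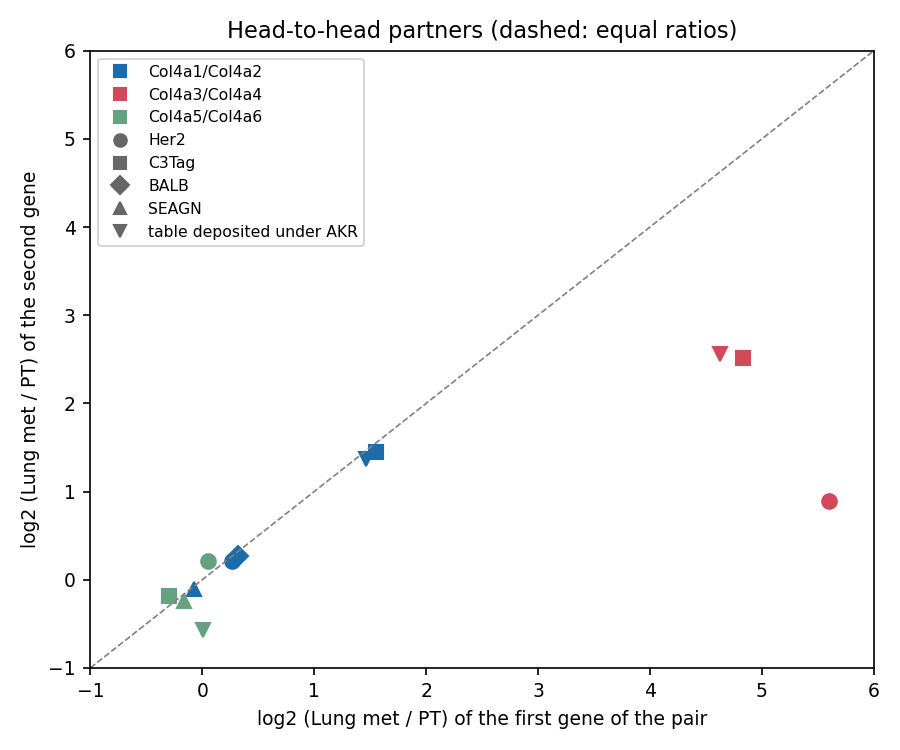
Log2 ratio of Lung met over PT of the second gene of each head-to-head pair (vertical axis) against that of the first (horizontal axis), with colors for pairs and marker shapes for tables. Points of Col4a1/Col4a2 lie on the dashed line of equal ratios within 0.10, while the 3 points of Col4a3/Col4a4 lie to the right of it by 2.06 to 4.71.

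Levels were compared between chains per transcript length, as the normalized mean divided by the kb of the longest coding transcript. On this scale Col4a4 in PT exceeded Col4a3 by 31.8-fold in Her2, 5.25-fold in C3Tag and 3.15-fold in the AKR-named table. In Lung met the pair stood near 1 to 1, with Col4a4 at 1.22, 1.06 and 0.754 times Col4a3 in the same order. With coding bases alone as the length, Col4a3 in Lung met was 0.701, 0.808 and 1.13 times Col4a4 in that order. In PT it was 0.0268, 0.162 and 0.271 times. The unlike ratios of this pair thus went with an unequal level in PT and a more nearly equal level in Lung met. Per transcript length, Col4a1 stood at 1.33 to 1.64 times Col4a2 in PT and 1.43 to 1.72 times in Lung met. Col4a5 stood at 0.796 to 1.44 times Col4a6 in PT and 0.737 to 1.81 times in Lung met.

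**Figure D3:**
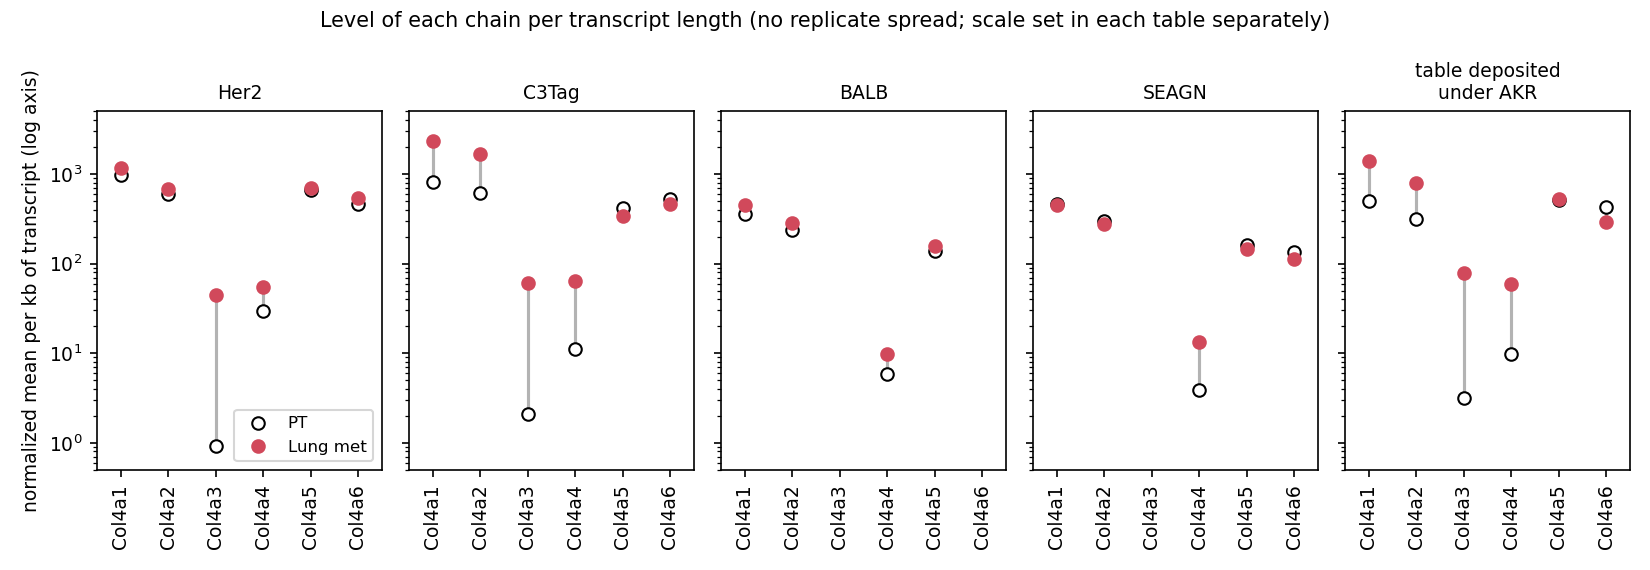
Normalized mean per kb of transcript (vertical log axis) for each chain in PT (open circles) and Lung met (filled circles), 1 panel per table, without replicate spread. In the Lung mets of Her2, C3Tag and the AKR-named table, Col4a3 and Col4a4 lie at 45.1 to 77.7 per kb, and in PT Col4a3 lies at 0.931 to 3.15 per kb.

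By level, Col4a3 and Col4a4 remained a small part of type IV collagen mRNA in both tissues. Per transcript length, they supplied 1.12% of the 6 chains in PT and 3.13% in Lung met of Her2. The shares were 0.559% and 2.51% in C3Tag and 0.737% and 4.35% in the AKR-named table. Col4a4 alone supplied 0.784% and 1.08% of the 4 chains measured in BALB, and 0.361% and 1.34% of the 5 in SEAGN.

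Col4a1 and Col4a2 together supplied 57.2% of the 6 chains in PT and 58.2% in Lung met of Her2. In C3Tag their share was 59.7% in PT and 81.3% in Lung met, and in the AKR-named table it was 45.8% and 69.8%. Col4a5 and Col4a6 made up most of the rest, with 39.7% in PT and 16.2% in Lung met of C3Tag and 53.4% and 25.9% in the AKR-named table. In Her2 the share of this pair was 41.6% in PT and 38.7% in Lung met. In BALB the common pair held 80.4% of the 4 measured chains in PT and 81.7% in Lung met. In SEAGN it held 71.9% and 72.8% of the 5 measured. The makeup of the network mRNA was therefore nearly equal in both tissues of Her2, BALB and SEAGN. It tilted to the common pair in Lung mets of C3Tag and the AKR-named table.

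**Figure D4:**
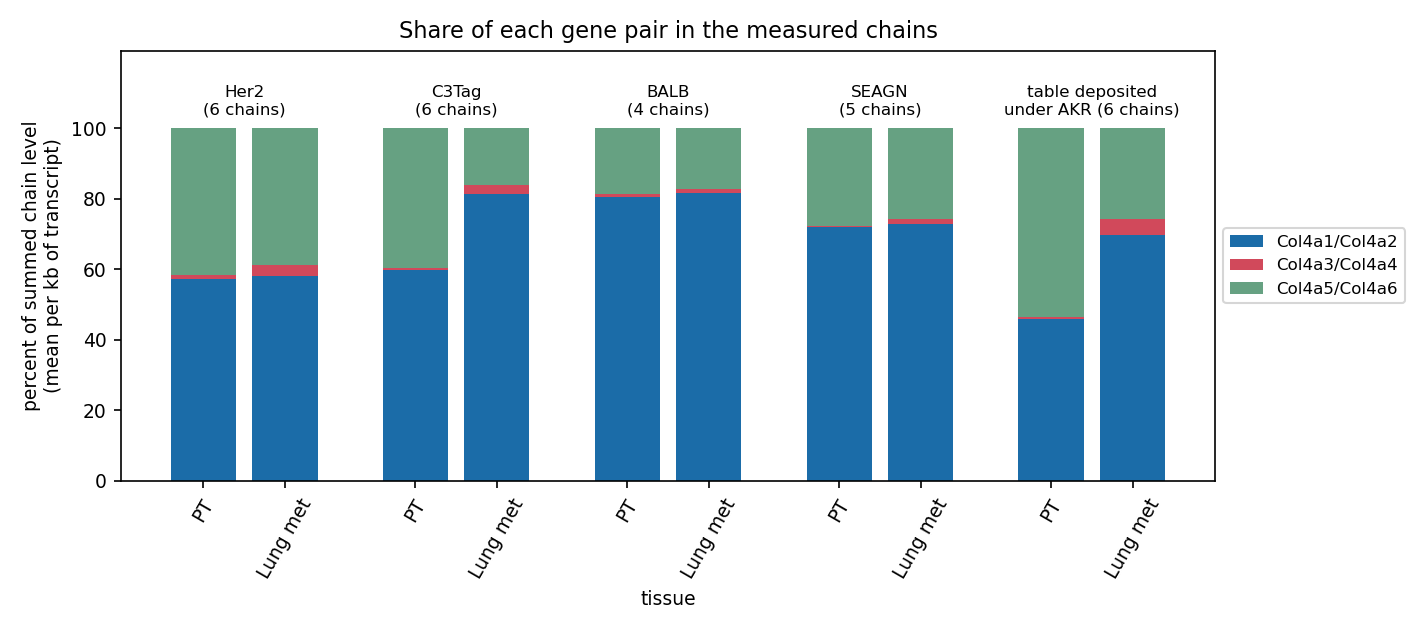
Share of each gene pair in the summed level of the measured chains (vertical axis, percent, means per kb of transcript) in PT and Lung met of each table. The Col4a1/Col4a2 share is 59.7% in PT and 81.3% in Lung met of C3Tag, 45.8% and 69.8% in the AKR-named table, and 57.2% and 58.2% in Her2. It is 80.4% and 81.7% in BALB (4 chains), and 71.9% and 72.8% in SEAGN (5 chains).

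Genes with the pattern most like Col4a3 were those at the smallest Euclidean distance in log2 ratio over the 3 tables that hold it, among 15551 genes. They were Ager (distance 1.11), Lgi3 (1.24), Nckap5 (1.46), Itih4 (1.496) and Foxf1 (1.63). Ager encodes the receptor for advanced glycation end products, a marker of alveolar type 1 cells, and had log2 ratios of 4.88 in Her2, 4.75 in C3Tag and 5.48 in the AKR-named table. For Col4a1 the nearest of 11796 genes over 5 tables were Col4a2 (0.16), Glipr2 (0.40), Cdc42ep2 (0.42), Sox18 (0.43) and Ppic (0.44). Sox18 is a transcription factor of endothelial cells and Ppic a cyclophilin. Without the AKR-named table, 4 of the 5 genes near Col4a3 stayed and only Col4a2 of those near Col4a1.

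Markers of other cell types were listed because the tissue was bulk lung nodule. Beside each list count from here on stand the shares of all genes per table. These were 2.26% to 7.42% at least 2-fold higher in Lung met and 1.43% to 3.22% at least 2-fold lower. Among alveolar type 1 markers, the flat cells that rest on the alveolar basement membrane, 6 to 8 of 9 genes were at least 2-fold higher in Lung met per table, with median log2 ratios of 1.92 in BALB to 3.63 in the AKR-named table. Ager, Clic5, Hopx and Rtkn2 were past 2-fold in all 5 tables. The log2 ratio of Ager was 4.04 in BALB and 5.12 in SEAGN, where Col4a3 was not analysed and Col4a4 stood at 0.74 and 1.79. The summed alveolar type 1 level was 61110 in PT and 62586 in Lung met of Her2, 9154 and 26068 in C3Tag, 4639 and 4801 in BALB, 3207 and 6986 in SEAGN, and 18187 and 38674 in the AKR-named table. Aqp5, a water channel, made up most of this sum in both tissues of Her2, with 57616 in PT and 52674 in Lung met. The same held in both tissues of SEAGN, with 2195 and 3647. It also made up most of the PT sum of BALB, with 3463 in PT and 2191 in Lung met. In PT of the AKR-named table it again made up most of the sum, with 13368 in PT and 13933 in Lung met. In Her2 and BALB its mean was lower in Lung met, unlike that of Ager. No measured marker of the list was at 0, and the lowest single mean was 6.20.

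Alveolar type 2 markers, the surfactant-making cells, had 4 or 5 of 5 measured genes at least 2-fold higher, with medians of 1.26 to 6.29 and summed levels 1.54-fold to 20.6-fold higher in Lung met. The list holds 8 genes, of which Sftpc, Sftpb and Sftpa1 were not analysed in any table. Lamp3 had log2 ratios of 4.62 to 7.84, Napsa of 3.54 to 6.01, Sftpd of 1.21 to 6.29 and Slc34a2 of 1.26 to 7.96. Abca3 of the same list, named after its values were seen, had -0.02 in Her2 and -0.21 in the AKR-named table. Its log2 ratio was 1.88 in C3Tag, 0.36 in BALB and 0.54 in SEAGN. Of the airway markers, 1 or 2 of the 2 or 3 measured genes were past 2-fold per table. Scgb1a1 and Scgb3a2 were not analysed in any table. Cyp2f2, an enzyme of club cells, had log2 ratios of 1.02 to 3.63. The remaining measured airway markers, named after their values were seen, were mixed. Foxj1 had 0.94 in C3Tag, 0.26 in BALB, -0.42 in SEAGN and 0.64 in the AKR-named table. Cyp2s1 had 1.62 in Her2, 2.82 in C3Tag, -0.40 in BALB and 0.91 in SEAGN. The medians of these lung cell lists were above 0 in all 5 tables, as was Col4a4. Their part in the ratios of these chains was not tested.

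Endothelial markers stood beside the common pair. In C3Tag and the AKR-named table, 6 of 9 and 8 of 9 were at least 2-fold higher, with medians of 1.43 and 1.64 beside the 1.37 to 1.55 of Col4a1 and Col4a2 there. In Her2, BALB and SEAGN 3, 2 and 2 of 9 were, with medians of 0.70, 0.66 and 0.65. Col4a1 was lower than these medians, at 0.27, 0.32 and -0.07, and so was Col4a2, at 0.22, 0.26 and -0.10. Summed endothelial levels were 2.88-fold and 3.48-fold higher in C3Tag and the AKR-named table, and 1.67-fold, 1.60-fold and 1.70-fold in the other 3. Vwf and Cldn5, which encode von Willebrand factor and a tight junction protein of vessels, were past 2-fold in all 5 tables, Cldn5 from 1.21 in Her2 to 4.49 in the AKR-named table. Emcn of the same list, named after its values were seen, was lower in Lung met of BALB (-0.22) and SEAGN (-0.33). It stood at 0.76 in Her2, 0.66 in C3Tag and 0.86 in the AKR-named table. The lowest single endothelial mean was 18.0. The part of endothelial cells in the Col4a1 and Col4a2 ratios was not tested.

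The stromal and mammary lists gave other patterns. Fibroblast markers had medians of -1.68 to -0.88, with 3 to 6 of 7 genes at least 2-fold lower in Lung met. Lum, a keratan sulfate proteoglycan of collagen fibrils, had log2 ratios of -5.39 to -1.63, and Thy1 of -2.68 to -1.40. Pdgfra of the same list, named after its values were seen, was above 0 in all 5 tables, at 0.44 to 0.94, and Dcn was at 0.75 in C3Tag and below 0 in the other 4. Of 7 pericyte and smooth muscle markers, 4 to 7 were measured per table. Acta2, Myh11 and Cnn1, the smooth muscle members, were analysed in Her2, C3Tag and BALB only. The measured genes had medians of -0.25 to 0.30, and 0 were past 2-fold in either direction. At the shares of all genes given above, so small a count is not read as a result. Myoepithelial markers, from cells that in mammary gland contact the basement membrane, had medians of 1.12 in Her2, 0.82 in BALB, 0.80 in SEAGN, -0.35 in the AKR-named table and -1.09 in C3Tag. Col4a5 had log2 ratios of 0.05, 0.15, -0.17, 0.01 and -0.30 in the same order. The signs of list and chain were opposite in SEAGN, and in the AKR-named table the chain was too close to 0 for its sign to be read. Col4a6 had 0.21 in Her2, -0.25 in SEAGN, -0.57 in the AKR-named table and -0.19 in C3Tag, with opposite signs in SEAGN. The list was itself split in SEAGN, where Krt17 was at -0.81 and Krt5, Krt14, Trp63 and Oxtr were above 0. It was also split in the AKR-named table, with Krt17 at 1.10 and Krt5, Krt14 and Trp63 at -0.55, -0.14 and -0.92. In Her2, Krt14, Krt17 and Trp63 were at 1.09, 1.15 and 1.16, from PT means of 15.6, 22.2 and 115. Oxtr, with a PT mean of 994, was at 0.08 there. Of the 5 genes listed, 3 to 5 were measured per table, without Krt5 in Her2 and C3Tag. A link between this list and the chains was not tested. Luminal markers had medians of -0.02 to 0.23. Krt19 of this list, named after its values were seen, had 3.81 in Her2, 0.40 in C3Tag, 1.23 in BALB and 0.35 in SEAGN. None of the 5 adipocyte markers was analysed here.

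**Figure D5:**
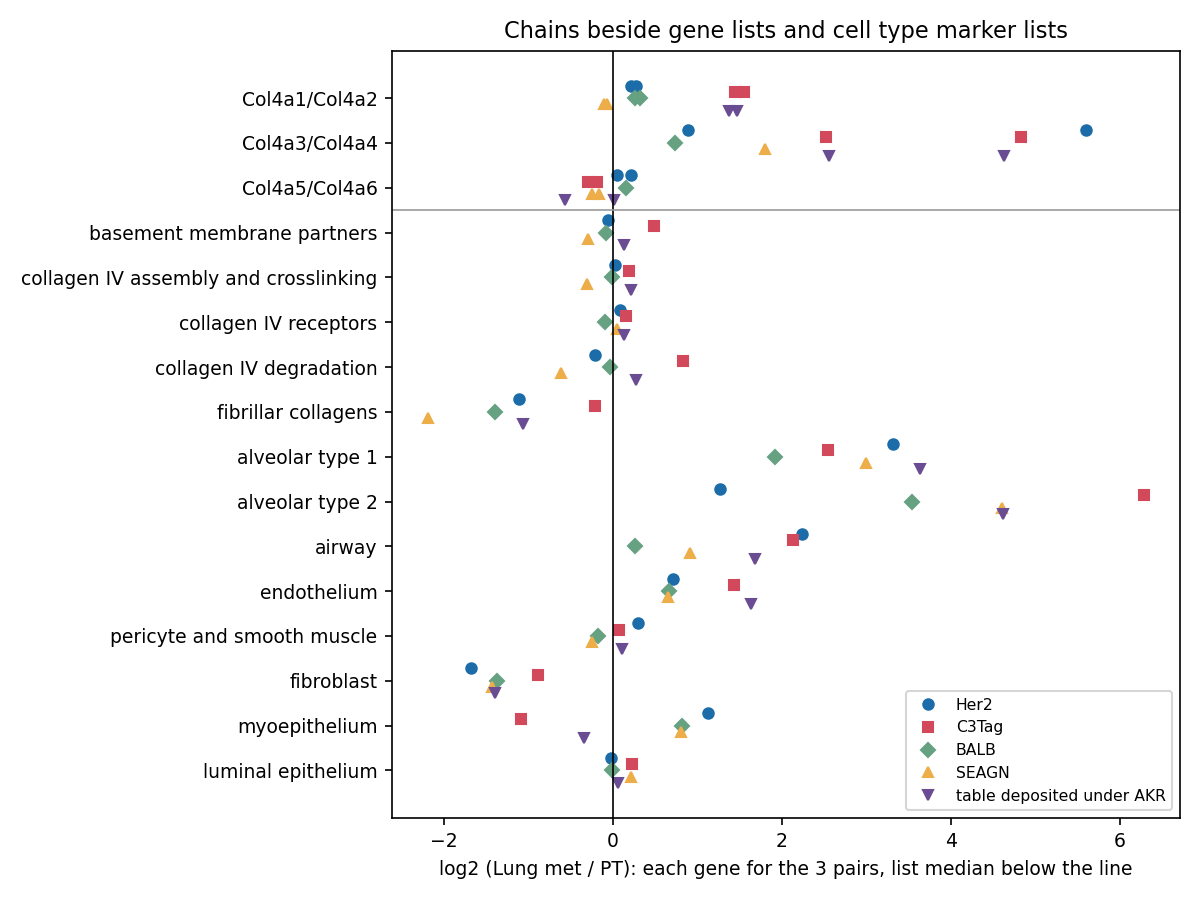
Log2 ratio of Lung met over PT (horizontal axis) of each chain, grouped by pair above the line, and median log2 ratio of each gene or marker list below it, with 1 marker per table. Alveolar type 1 and 2 medians lie at 1.26 to 6.29, endothelial medians at 0.65 to 1.64, fibrillar collagen medians at -2.19 to -0.22 and the medians of assembly and receptor genes at -0.31 to 0.21.

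The fibrillar collagens, which build the interstitial matrix, had list medians below 0 in all 5 tables, while Col4a4 was above 0 in each. The medians were -1.12 in Her2, -0.22 in C3Tag, -1.40 in BALB, -2.19 in SEAGN and -1.07 in the AKR-named table. Of 8 or 9 measured genes, 5, 0, 5, 5 and 4 were at least 2-fold lower in Lung met in that order. Not all members were lower, as 2 genes named after their values were seen show. Col11a1 had log2 ratios of -0.29, -0.71, 0.43, -0.48 and 0.38 in the same order. Col2a1 had 2.77 in C3Tag and 0.21 in BALB, the tables in which it had means. Summed fibrillar collagen levels were 4.40-fold lower in Lung met of SEAGN and 1.16-fold lower in C3Tag. The 4 tables with the lower fibrillar medians included the AKR-named table, in which Col4a1 and Col4a2 were 2.76-fold and 2.58-fold higher.

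Genes that work with type IV collagen did not share the ratio of Col4a3. Basement membrane partners (laminins, nidogens, perlecan and others) had medians of -0.29 in SEAGN to 0.49 in C3Tag, with 1 to 5 of 17 to 19 measured genes at least 2-fold higher and 0 to 2 at least 2-fold lower per table. None of them was past 2-fold in 1 direction in all 5 tables. By role, and named after their values were seen, Lamb1 and Lamc1, the chains of the most widespread laminins, had log2 ratios of -0.49 to 0.75 and -0.38 to 0.35. Lama3 had log2 ratios of 2.22 in Her2, 1.08 in C3Tag, 0.91 in BALB, 1.44 in SEAGN and 1.14 in the AKR-named table. The gene encodes the alpha chain of laminin-332, an epithelial laminin. Hspg2 (perlecan) had log2 ratios of -0.27, 0.68, -0.42, -0.80 and 0.00 in the same order.

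Enzymes and chaperones of assembly and crosslinking, which hydroxylate, fold and link the chains, had medians of -0.31 to 0.21. Of 16 to 18 measured genes per table, 0 or 1 was at least 2-fold higher, and 0 were at least 2-fold lower apart from 4 in SEAGN. Over all genes, 2.26% to 7.42% were that much higher and 1.43% to 3.22% that much lower, so counts of 0 or 1 are not read as a result. Pxdn, the peroxidase that forms the sulfilimine crosslink of type IV collagen, had log2 ratios of -0.32 in Her2, 0.16 in C3Tag, -0.05 in BALB, -0.45 in SEAGN and -0.08 in the AKR-named table. Serpinh1, the collagen chaperone, had -0.10, 0.31, -0.19, -0.05 and 0.60 in the same order. These 2 were also named by role after their values were seen.

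Among collagen IV receptors, medians were -0.10 to 0.15, with 0 to 2 of 10 or 11 measured genes at least 2-fold higher and 0 or 1 at least 2-fold lower. Given the same shares of all genes, nothing is read from these counts. The list holds 4 collagen-binding integrin alpha chains, Itga1, Itga2, Itga10 and Itga11, which were named by role in the same way. Itga2 had log2 ratios of 1.13 in Her2, 2.87 in C3Tag, 0.38 in BALB, 1.01 in SEAGN and 0.35 in the AKR-named table. Itga1 had 0.36, 1.29, 0.13, 0.87 and 0.96 in the same order. Itga10 had 0.28, 0.80, -0.58, -0.02 and -0.59. Itga11 had -1.52 in Her2, -1.34 in C3Tag and -2.24 in BALB, the tables in which it had means. In the list of proteases and inhibitors of collagen IV degradation, medians spanned -0.62 to 0.82, with 1 to 3 of 7 or 8 measured genes at least 2-fold higher and 1 to 3 at least 2-fold lower per table. Mmp12, a metalloproteinase of macrophages, was the gene past 2-fold in all 5 tables, with log2 ratios of 1.71, 1.94, 2.03, 2.32 and 3.75, again in that order. Mmp2, a gelatinase named after its values were seen, had -1.67, -0.28, -2.13, -1.85 and -1.13.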

How the data were processed

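Values of the type IV collagen chains came from tables of the authors' comparisons of Lung met with PT, 1 table per model. The values used are a signal per gene and tissue that the authors deposited as least-squares means of normalized counts, and they come with neither SD nor n. The means of the table under AKR have the same form, but the strain they belong to was not settled. Its quotients equal the BL6 values listed by the authors in 269 of 275 genes, within 0.5%. The authors aligned and counted reads in Partek Flow and used Gene Specific Analysis for the driver cohort and DESeq2 for PyMT-F1. The normalization is not named. The methods name mm9 and mm10, the labels mm39, STAR 2.7.8a and DESeq2 without roles, and BALB and SEAGN carry BALB/cJ identifiers. The 26 columns of ratios, fold changes, p-values and FDR hold the study's findings and were not used, which leaves nothing but gene names for Myc. Depth is unknown, so no interval was computed.

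From the means, log2 ratios of Lung met over PT, percentiles among all genes, levels per kb (longest protein-coding transcript, GENCODE M21) and list medians were computed. Models were normalized separately, so levels were not compared between tables. Genes were matched by a symbol occurring once per table. Named were the 6 chains, up to 4 genes per list at least 2-fold changed in 1 direction in all 5 tables, and the 5 genes nearest to Col4a3 and to Col4a1 with a mean of at least 10. Further genes were named after their values were seen, as stated where they appear. The rule foresaw 1 set of tables, and for Col4a3 distances cover the 3 that hold it. Members and lists were chosen with earlier results of these data known. No test was run, as each group has 1 mean. The computations were tested on simulated data. Alternatives were a pseudocount of 1, centring, a 1.5-fold limit, a mean of at least 10, coding length and other chain groupings. Python 3.11.15, numpy 2.4.6, pandas 2.3.3 and matplotlib 3.10.9 were used.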

Additional observations from a re-analysis of the deposited data

How the results depend on the processing

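No paired analysis was possible because the tables hold group means alone, and leaving out replicates could not be run for the same reason. With no replicate spread, a log2 value counts as moved beyond a factor of 1.5. Adding a pseudocount of 1 or centring on the median of all genes moved none of the 27 chain ratios that far. Coding length moved none of the Col4a1 and Col4a2 shares by over 10 percentage points. It was not tried on the shares of the other pairs. At a 1.5-fold limit the chains higher in Lung met became 2 in Her2 and 1 in BALB, where 5.42% and 6.20% of all genes were that much higher. The difference of alveolar and common chains depended on the chains entered. Summed means gave -0.023 in Her2, -1.26 in C3Tag, -0.10 in BALB, 0.056 in SEAGN and -1.02 in the AKR-named table. Adding Col4a6 gave 0.22 in C3Tag and 0.24 in the AKR-named table. Leaving out Col4a3 gave 0.23 in Her2, -0.39 in C3Tag and -0.13 in the AKR-named table, leaving out Col4a4 gave 2.58 in Her2, -0.14 in BALB and -0.081 in SEAGN, and leaving out Col4a5 gave 3.00, 2.18, 1.88 and 2.18 in Her2, C3Tag, SEAGN and the AKR-named table. Chosen after seeing the data, Col4a5 and Col4a6 against Col4a1 and Col4a2 gave -0.11, -1.74, -0.12 and -1.70 in those tables, and Col4a3 and Col4a4 gave 3.00, 2.18 and 2.18 in the 3 that hold both. Without the AKR-named table, 1 of the 5 genes nearest to Col4a1 stayed.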
